A study of Mus musculus with 6 samples.

Results

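Collagen genes were taken from the count table of a mouse melanoma study as every row whose gene symbol is Col, a number, the letter a and a number, which gave 44 of 22740 genes, all listed as protein-coding in that table. They were sorted by the structure their chains form into 11 fibrillar collagens, 6 basement membrane collagens (the chains of type IV) and 27 other collagens. RNA was sequenced from B16 cells, a pigmented mouse melanoma line labelled BRAFV600E-negative in every sample. The CX-5461 group had 3 samples kept for 3 days with 1 uM CX-5461, a small molecule that blocks RNA polymerase I, and the DMSO group had 3 samples given the vehicle for the same time. All samples are of 1 cultured line, without the stroma of a tumour. The labels do not say whether the replicates were separate cultures, so p-values measure the spread between these samples, which may be technical.

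Collagens are secreted or membrane-bound proteins in which chains of repeated glycine-led triplets wind into a triple helix. Fibrillar collagens build the tensile fibres of skin, bone and cartilage, type IV chains form the sheet-like network under epithelia and around vessels, and most others decorate fibrils, anchor membranes or span the cell surface. Chains are hydroxylated and folded in the endoplasmic reticulum, exported in large carriers, trimmed outside the cell and cross-linked. Connective-tissue cells are the main makers of fibrillar collagen, and melanocytes in skin rest on a basement membrane.

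The CX-5461 libraries held 17877481 to 22908309 counts and the DMSO libraries 17573990 to 20198979. A floor of 3 counts, used where a gene was not counted at all, was worth 0.135 to 0.173 CPM, the counts of a gene scaled to the size of its library. CX-5461 replicate 2 stood apart, since its counts differed from those of the other CX-5461 libraries with a chi-square of 9.39 and 7.64 times its degrees of freedom, where those 2 gave 5.65 times against each other and DMSO pairs 1.57 to 2.54 times. All 7 melanocyte markers were higher at an adjusted p below 0.05, where 37.2% of all tested genes were higher and 36.5% lower. The call of Pmel ended with library totals only (0.1221) and with an offset that removes the trend of change on GC content (0.09689). It also ended without DMSO replicate 1 (0.05405) or DMSO replicate 2 (0.06184, edgeR). The list had a sum of 28253 to 30557 CPM in CX-5461 and 22078 to 22929 CPM in DMSO libraries. Dct, a melanin enzyme and the most abundant of them, was at 11013 ± 491.7 CPM in CX-5461 and 8576 ± 54.2 CPM in DMSO samples (SD, n = 3 each). Of 7 fibroblast markers, Thy1 had no count in any library, and Dcn, Lum and Dpt had 2, 5 and 2 counts over the CX-5461 libraries and no count over the DMSO libraries. Of the other fibroblast markers Fbln1 and Postn rose (adjusted p = 4.636e-14 and 5.228e-14, edgeR). Pdgfra, with overlapping groups, had a log2 change of -0.37 ± 0.16 (adjusted p = 0.04416, edgeR) and did not pass with a like offset for gene span (0.05828), with DESeq2 (0.1035), or without CX-5461 replicate 3 (0.1554), DMSO replicate 1 (0.1648) or DMSO replicate 2 (0.1512). Fbln1, a matrix glycoprotein, was the most abundant at 303.6 ± 10.996 CPM in CX-5461 and 80.0 ± 3.19 CPM in DMSO samples. The fibroblast list summed to 392.6 to 416.9 CPM in CX-5461 and 99.8 to 105.3 CPM in DMSO libraries, mostly from Fbln1 and, chosen after its values were seen, Postn, a matricellular protein at 99.9 ± 4.18 CPM in CX-5461 and 17.2 ± 1.35 CPM in DMSO samples. The endothelial list summed to at most 0.230 CPM in CX-5461 and 0.338 CPM in DMSO libraries. The smooth muscle and pericyte list, with Acta2 at no count, summed to 6.96 to 9.61 CPM in CX-5461 and 1.95 to 2.95 CPM in DMSO libraries, from Cspg4, a proteoglycan also carried by melanoma cells, and Myh11, a smooth muscle myosin. The macrophage list, with Itgam at no count, summed to 11.2 to 13.5 CPM in CX-5461 and 10.6 to 10.8 CPM in DMSO libraries, nearly all from Cd68. The part of any of these markers in the collagen results was not tested. In such bulk samples a change in the number of cells of a type and a change in RNA per cell cannot be told apart.

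With CX-5461, more of the measured collagen transcripts rose than fell in each family. Col1a2, Col5a1, Col16a1, Col15a1 and the type IV chains rose, whereas Col1a1 and Col11a2 fell. Of the 44 collagen genes, 22 passed the filter on low counts and were tested, and 16 of these rose, 4 fell and 2 did not pass at an adjusted p below 0.05 (edgeR quasi-likelihood test, Benjamini-Hochberg adjustment over 12198 genes). Among all tested genes 73.7% were called, 37.2% higher and 36.5% lower, against 72.7% and 18.2% of the tested collagens. At least 2-fold, 13 collagens were higher and 1 lower, where 11.7% and 4.16% of all tested genes were. In 15 of the 22 tested collagens every CX-5461 library lay above every DMSO library and in 3 every one lay below, against 38.2% and 37.9% of all tested genes. The median log2 change was 1.38 for the tested collagens and -0.005 for all tested genes.

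Passing the filter depended in part on the change itself. Col4a4, Col9a1, Col10a1, Col12a1 and Col14a1 reached the minimum in every CX-5461 library and not in every DMSO library, and Col8a2 in every DMSO library and not in every CX-5461 library. Of these, Col4a4, Col10a1, Col12a1 and Col14a1 were counted among the 13 collagens at least 2-fold higher. The same genes were among the 15 whose CX-5461 libraries all lay above, and Col8a2 among the 3 that lay below. The median of 1.38 also includes them. Among the 16 collagens that reached the minimum in all 6 libraries, 12 rose, 3 fell and 1 did not pass. Of all 11552 tested genes that did so, 4173 were higher and 4339 lower. Without CX-5461 replicate 2, 16 of the 22 tested collagens were called higher and 2 lower, beside 4554 higher and 4585 lower of the 12198 tested genes. The filter was applied anew to the remaining libraries, and over all collagens that passed it 17 were higher and 2 lower. Over all genes that passed it, 4600 were higher and 4608 lower.

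**Figure D1:**
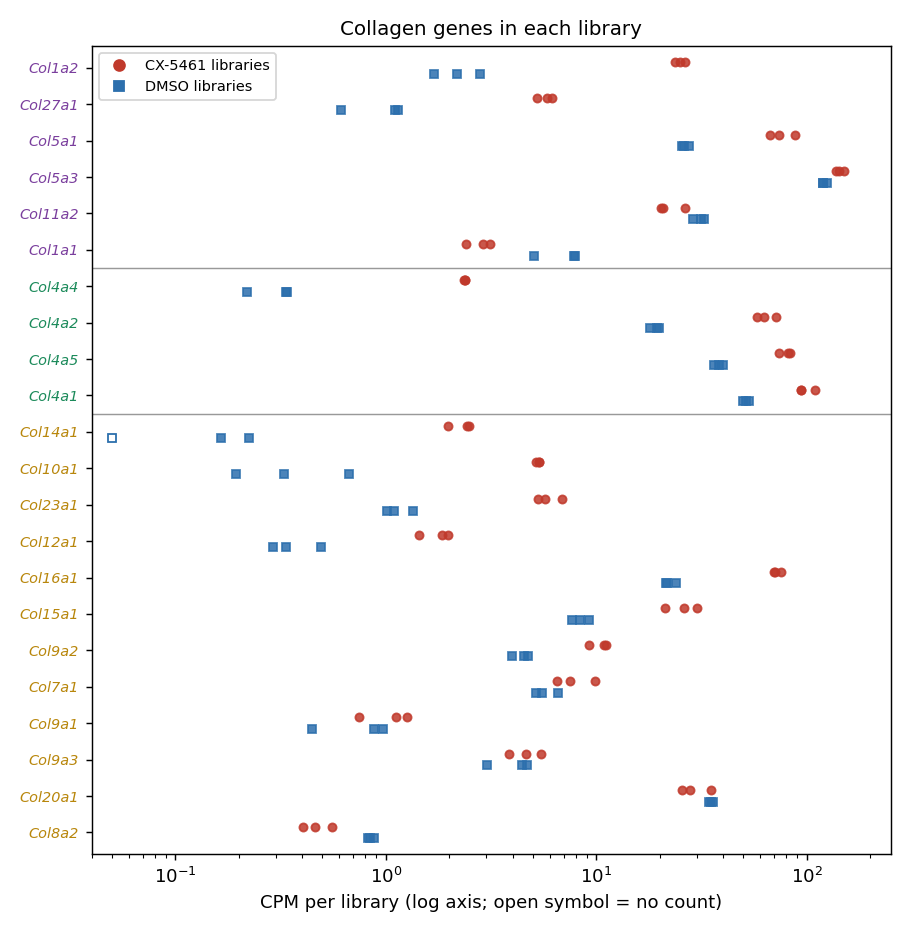
CPM of the 22 tested collagen genes in each library on a log axis, with CX-5461 libraries as circles and DMSO libraries as squares, each point 1 library. Fibrillar collagens stand at the top, basement membrane collagens in the middle and other collagens below, and the open square marks a DMSO library with no count of Col14a1. The groups are apart for 18 genes and overlap for Col7a1, Col9a1, Col9a3 and Col20a1.

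Promoter sequence of 5 of these genes is shown so that strongly and weakly changed members can be read side by side: Col1a2 and Col10a1 rose 11.4-fold and 13.5-fold, Col5a1 and Col16a1 2.89-fold and 3.22-fold, and Col5a3 1.18-fold. Each is the part of the RefSeq promoter window (GRCm38.p6, from 250 bases before to 50 after the start site) that lies outside annotated exons of coding genes, cut to at most 200 bases and given 5′ to 3′ on the strand of the gene. Capitals mark the motifs GGGCGG (the GC box), CCAAT (the CCAAT box) and TATAAA (the TATA box) on either strand, and the E-boxes CACGTG and CATGTG were searched in the same way.
Col1a2 (chr6:4505370-4505492, + strand): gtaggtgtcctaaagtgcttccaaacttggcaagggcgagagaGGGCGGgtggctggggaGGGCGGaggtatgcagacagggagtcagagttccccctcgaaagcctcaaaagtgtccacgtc
Col10a1 (chr10:34389781-34389980, + strand): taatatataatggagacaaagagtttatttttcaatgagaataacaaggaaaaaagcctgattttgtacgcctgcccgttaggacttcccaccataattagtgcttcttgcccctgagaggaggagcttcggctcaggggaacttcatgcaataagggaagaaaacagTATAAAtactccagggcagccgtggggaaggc
Col5a1 (chr2:27886225-27886424, + strand): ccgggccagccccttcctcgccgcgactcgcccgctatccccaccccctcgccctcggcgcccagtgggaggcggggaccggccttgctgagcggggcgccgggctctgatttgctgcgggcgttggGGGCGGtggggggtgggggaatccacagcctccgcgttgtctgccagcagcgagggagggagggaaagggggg
Col16a1 (chr4:130047640-130047839, + strand): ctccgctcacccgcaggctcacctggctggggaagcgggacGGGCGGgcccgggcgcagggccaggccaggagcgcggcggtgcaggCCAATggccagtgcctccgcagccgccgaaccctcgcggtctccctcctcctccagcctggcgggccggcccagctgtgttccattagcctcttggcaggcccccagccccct
Col5a3 (chr9:20815068-20815267, - strand): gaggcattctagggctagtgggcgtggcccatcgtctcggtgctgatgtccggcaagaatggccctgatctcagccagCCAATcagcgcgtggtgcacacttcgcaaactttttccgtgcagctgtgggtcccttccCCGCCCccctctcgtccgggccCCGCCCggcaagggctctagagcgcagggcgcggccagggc
The stretch of Col1a2 ends 126 bases before its RefSeq start site and those of the other 4 at the base before theirs. It lies inside the annotated Col1a2 gene, which starts at 4504814. Motifs of the full windows that fall outside the stretches are not printed, among them the 2 CCAAT of Col1a2. RefSeq windows were matched for 35 of the 44 collagens. In the full windows, GGGCGG was found in 13 and CCAAT in 8 of 19 windows of 18 tested collagens, against 35.7% and 37.4% of all 32851 windows. TATAAA was found in the windows of Col10a1 and Col11a2, 2 of 19 where 13.6% of all windows hold it. CATGTG was found in the window of Col11a2 and in 14.2% of all windows, and CACGTG in none of the 19 and in 7.15% of all. No motif contains another, and CACGTG and CATGTG differ at 1 base. The Col1a2, Col5a1, Col5a3 and Col16a1 windows share GGGCGG, and their log2 changes run from 0.24 to 3.51. Over the 13 tested genes with GGGCGG, log2 changes run from -0.83 for Col8a2 to 3.51 for Col1a2, and Col11a2, at -0.45, is also among them.

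The fibrillar collagens went both ways. Of 11 genes 6 were tested, with 4 higher, 2 lower and a median log2 change of 0.89, where 37.2% of all tested genes were higher and 36.5% lower. The summed level of the family was 278.2, 258.9 and 293.1 CPM in the CX-5461 libraries, against 195.6, 187.7 and 183.8 CPM in the DMSO libraries, a ratio of 1.46 between the means.

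The chains of type I collagen, the main fibre of skin and bone, moved in opposite directions. Col1a2 (chromosome 6, 4504814 to 4541544, GRCm38) had 26.4, 24.97 and 23.8 CPM in the CX-5461 libraries, against 2.19, 1.69 and 2.79 CPM in the DMSO libraries. Its level was higher in every CX-5461 library than in any DMSO library, by 11.4-fold or 3.51 ± 0.13 on the log2 scale (SE, adjusted p = 3.31e-12, edgeR). Col1a1 (chromosome 11, 94936224 to 94953042) had 2.88, 2.42 and 3.13 CPM in the CX-5461 libraries, against 7.81, 7.92 and 5.08 CPM in the DMSO libraries. The groups were apart here too, with DMSO replicate 3 the lowest of its group, and the log2 change was -1.30 ± 0.18 (adjusted p = 1.082e-05, edgeR). Per kilobase of transcript, Col1a2 stood at 10.2, 11.5 and 8.41 times the level of Col1a1 in the CX-5461 libraries, against 0.310, 0.237 and 0.609 times in the DMSO libraries. This ratio is taken within a library and so does not rest on the scaling between libraries. The log2 changes ran from 3.33 to 3.70 for Col1a2 and from -1.48 to -1.19 for Col1a1 over the alternative settings.

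Type V collagen chains, which set the width of fibrils, also differed in the size of their change. Col5a3 (chromosome 9, 20770050 to 20815067) was the most abundant collagen per kilobase in both groups, at 23.5 CPM per kb in CX-5461 and 19.8 CPM per kb in DMSO samples. It had 142.1, 137.7 and 151.1 CPM in the CX-5461 libraries, against 124.1, 119.6 and 120.0 CPM in the DMSO libraries. The groups did not overlap, and the rise was 1.18-fold (log2 change 0.24 ± 0.05, adjusted p = 2.844e-04, edgeR). Col5a1 (chromosome 2, 27886425 to 28039514) had 73.4, 67.0 and 88.2 CPM in the CX-5461 libraries, against 27.5, 25.5 and 26.2 CPM in the DMSO libraries. It rose 2.89-fold (log2 change 1.53 ± 0.09, adjusted p = 3.575e-10, edgeR), with the lowest CX-5461 value in replicate 2. Col5a1 stood at 0.376, 0.354 and 0.425 times the level of Col5a3 per kilobase in the CX-5461 libraries, against 0.162, 0.155 and 0.159 times in the DMSO libraries. Col5a2, the remaining type V chain, had 1, 2 and 0 counts in the CX-5461 libraries and 0, 0 and 2 in the DMSO libraries and was not tested.

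Col11a2, a chain of the type XI collagen of cartilage fibrils, had 26.4, 20.8 and 20.3 CPM in the CX-5461 libraries, against 32.5, 31.5 and 28.8 CPM in the DMSO libraries. All CX-5461 values were below all DMSO values, by 1.37-fold (log2 change -0.45 ± 0.09, adjusted p = 4.399e-04, edgeR). Col11a1, its partner chain, had at most 6 counts in a library. Col27a1, a fibrillar collagen of developing cartilage, had 6.17, 5.24 and 5.81 CPM in the CX-5461 libraries, against 1.15, 1.11 and 0.614 CPM in the DMSO libraries. This was a 5.94-fold rise (log2 change 2.57 ± 0.20, adjusted p = 1.75e-08, edgeR). Col3a1, which forms fibrils with type I collagen in skin and vessels, had no count in any library.

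**Figure D2:**
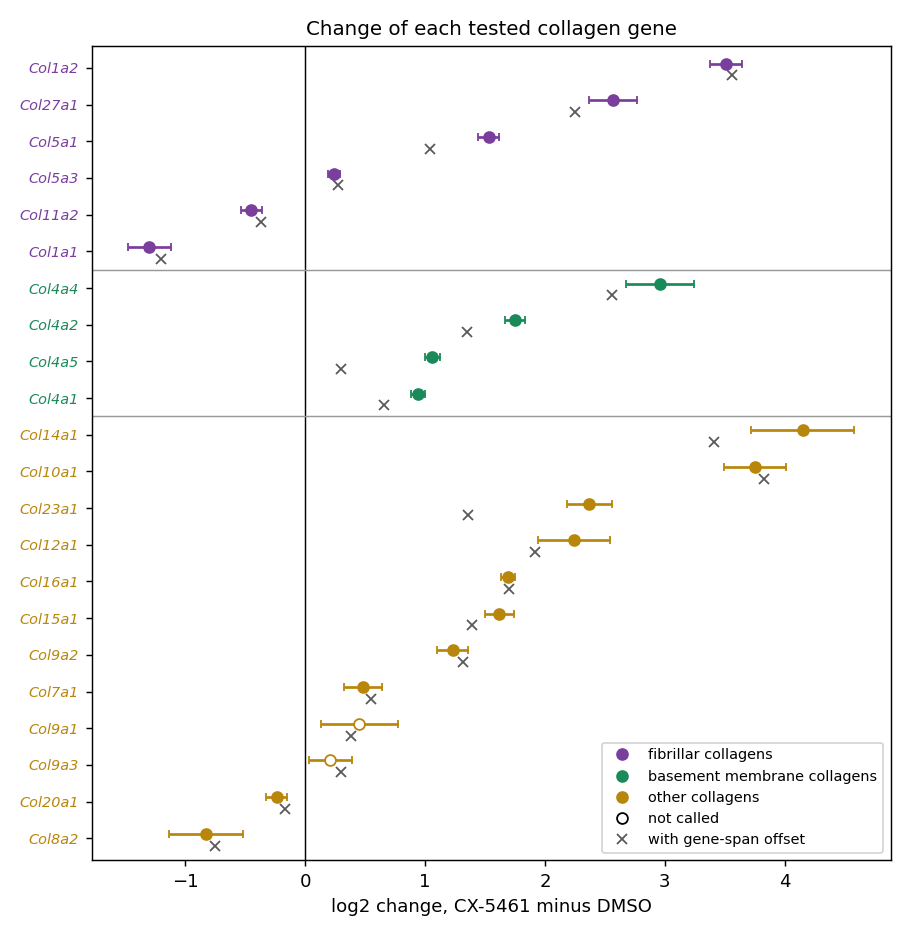
Log2 change (CX-5461 minus DMSO) of the 22 tested collagens with its standard error, filled where the adjusted p was below 0.05 and open where not, with crosses for the value after an offset for gene span. Values run from -1.30 for Col1a1 to 4.15 for Col14a1, and the crosses of Col4a5 and Col23a1 lie farther to the left than their points.

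The basement membrane collagens that could be tested were all higher. Of 6 type IV chains 4 were tested and 4 rose, with a median log2 change of 1.41, where 37.2% of all tested genes were higher and 36.5% lower. Col4a4 passed the filter mainly through the CX-5461 libraries. The 3 chains that reached the minimum in all 6 libraries were all higher. The share higher was 59.8% among all tested genes of 100 to 200 kb, the range of Col4a1, Col4a2 and Col4a4. It was 86.0% among those of 200 to 400 kb, the range of Col4a5. The summed level of the 6 chains was 241.9, 229.8 and 266.7 CPM in the CX-5461 libraries, against 105.9, 110.0 and 111.7 CPM in the DMSO libraries, a ratio of 2.25 between the means.

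Col4a1 and Col4a2 encode the chains of the network found in most basement membranes and lie head to head on chromosome 8. Col4a1 (11198423 to 11312826) had 94.1, 94.4 and 109.0 CPM in the CX-5461 libraries, against 50.1, 51.6 and 53.2 CPM in the DMSO libraries. The groups were well apart, by 1.92-fold (log2 change 0.94 ± 0.06, adjusted p = 2.033e-09, edgeR). Col4a2 (11312805 to 11449287) had 62.6, 58.3 and 71.4 CPM in the CX-5461 libraries, against 19.5, 17.9 and 19.8 CPM in the DMSO libraries. It rose 3.37-fold (log2 change 1.75 ± 0.08, adjusted p = 2.764e-11, edgeR), with CX-5461 replicate 3 the highest for both chains. Per kilobase, Col4a2 stood at 0.682, 0.634 and 0.672 times the level of Col4a1 in the CX-5461 libraries, against 0.400, 0.356 and 0.382 times in the DMSO libraries. The annotated first exons of the pair share 22 bases on opposite strands, 0.295% of the exonic length of Col4a1.

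Col4a5 and Col4a4 are chains of the specialised network of the kidney filter, and Col4a5 also occurs in skin. Col4a5 (chromosome X, 141475385 to 141689234) had 81.8, 74.0 and 83.0 CPM in the CX-5461 libraries, against 36.1, 40.1 and 38.2 CPM in the DMSO libraries. It rose 2.09-fold (log2 change 1.06 ± 0.06, adjusted p = 4.383e-10, edgeR), which became 0.30 on the log2 scale with an offset for gene span (adjusted p = 1.462e-04, the highest over alternatives). Relative to Col4a1, Col4a5 stood at 0.880, 0.794 and 0.770 times per kilobase in the CX-5461 libraries, against 0.730, 0.787 and 0.727 times in the DMSO libraries, and these groups overlapped. Col4a4 was scarce, with 2.39, 2.36 and 2.38 CPM in the CX-5461 libraries, against 0.219, 0.338 and 0.335 CPM in the DMSO libraries (log2 change 2.96 ± 0.28, adjusted p = 1.296e-07, edgeR). Its head-to-head neighbour Col4a3 had 18, 9 and 15 counts in the CX-5461 libraries and 1, 0 and 3 in the DMSO libraries and fell under the filter. With no filter, Col4a3 passed as higher, by 3.20 ± 0.67 on the log2 scale (adjusted p = 2.363e-05, edgeR). Col4a6 had at most 3 counts in a library.

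**Figure D3:**
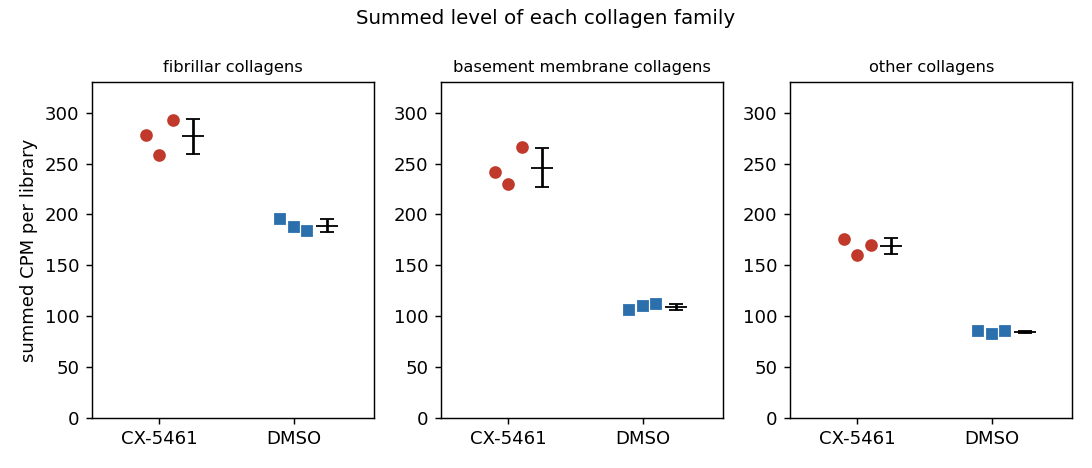
Summed CPM of the fibrillar, basement membrane and other collagens in each library, with the mean and SD (n = 3) beside the points and the axis starting at 0. All 3 CX-5461 libraries lie above all 3 DMSO libraries in each family, and the ratio of the means was 1.46, 2.25 and 2.01.

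Of the 27 other collagens 12 were tested, with 8 higher, 2 lower, 2 not passed and a median log2 change of 1.43, where 37.2% of all tested genes were higher and 36.5% lower. Of the 7 that reached the minimum in all 6 libraries, 5 were higher and 1 lower, and 4 others passed the filter mainly through the CX-5461 libraries. Their summed level was 176.0, 160.2 and 170.1 CPM in the CX-5461 libraries, against 84.9, 82.7 and 84.8 CPM in the DMSO libraries, a ratio of 2.01 between the means.

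Fibril-associated collagens sit on the surface of fibrils, and 7 of their 9 genes were tested. Col16a1 (chromosome 4, 130047840 to 130099283) was the most abundant of them with CX-5461, at 70.1, 70.8 and 75.1 CPM in the CX-5461 libraries, against 21.5, 21.8 and 23.9 CPM in the DMSO libraries. It rose 3.22-fold (log2 change 1.69 ± 0.06, adjusted p = 2.622e-12, edgeR), and its log2 change lay between 1.61 and 1.73 over the alternatives. Col20a1 was at 5.90 CPM per kb in CX-5461 samples and at 6.99 CPM per kb in DMSO samples, where it was the most abundant of them. It had 35.2, 27.8 and 25.6 CPM in the CX-5461 libraries and 34.2, 35.0 and 36.0 CPM in the DMSO libraries. The groups overlapped because CX-5461 replicate 1 lay among the DMSO values, and the log2 change was -0.24 ± 0.09 (adjusted p = 0.03153, edgeR). It was -0.40 without CX-5461 replicate 1. The call ended at adjusted p = 0.05725 without CX-5461 replicate 2, 0.1554 without CX-5461 replicate 3, 0.0665 without DMSO replicate 2, 0.09159 without DMSO replicate 3 and 0.09728 with the gene-span offset.

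The chains of type IX collagen, a partner of cartilage fibrils, did not move alike. Col9a2 had 10.9, 11.1 and 9.20 CPM in the CX-5461 libraries, against 4.54, 4.73 and 3.97 CPM in the DMSO libraries, and rose 2.35-fold (log2 change 1.23 ± 0.13, adjusted p = 3.284e-07, edgeR). Col9a3 had 5.45, 3.85 and 4.65 CPM in the CX-5461 libraries and 4.70, 4.44 and 3.02 CPM in the DMSO libraries, with overlapping groups (adjusted p = 0.3107, edgeR), and 6.07% of its exonic bases overlap Tcfl5 on the opposite strand. Col9a1 averaged 1.04 ± 0.264 CPM in CX-5461 and 0.762 ± 0.277 CPM in DMSO samples and did not pass either (adjusted p = 0.2173, edgeR). Per kilobase, Col9a2 stood at 2.07, 3.00 and 2.06 times the level of Col9a3 in the CX-5461 libraries, against 1.01, 1.11 and 1.37 times in the DMSO libraries.

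Col12a1 and Col14a1, which bind type I fibrils in tendon and skin, were scarce. Col12a1 had 41, 25 and 39 counts in the CX-5461 libraries, against 9, 6 and 6 in the DMSO libraries (log2 change 2.24 ± 0.30, adjusted p = 7.7e-06, edgeR). Col14a1 had 54, 43 and 39 counts in the CX-5461 libraries, against 3, 0 and 4 in the DMSO libraries, and gave the largest log2 change of the tested collagens, 4.15 ± 0.43 (adjusted p = 3.482e-07, edgeR). With so few DMSO counts its size is uncertain, and it became 3.52 without DMSO replicate 2, 4.78 without DMSO replicate 3 and 3.41 with the gene-span offset.

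Col15a1, a collagen of the basement membrane zone that is also cleaved to soluble fragments, had 26.0, 21.2 and 30.1 CPM in the CX-5461 libraries, against 9.23, 7.63 and 8.38 CPM in the DMSO libraries. It rose 3.08-fold (log2 change 1.62 ± 0.12, adjusted p = 1.084e-08, edgeR). Its relative Col18a1 had at most 9 counts in a library. Col7a1, which forms the anchoring fibrils that hold the epidermis to the dermis, had 9.91, 6.501 and 7.53 CPM in the CX-5461 libraries and 6.56, 5.55 and 5.19 CPM in the DMSO libraries. The groups met, since CX-5461 replicate 2 lay just below DMSO replicate 1, and the log2 change of 0.48 ± 0.16 (adjusted p = 0.01106, edgeR) no longer passed without CX-5461 replicate 1 (0.28, adjusted p = 0.09835) or DMSO replicate 3 (0.41, adjusted p = 0.05447).

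Col10a1, the network-forming collagen of hypertrophic cartilage, had 5.36, 5.18 and 5.36 CPM in the CX-5461 libraries, against 0.328, 0.193 and 0.670 CPM in the DMSO libraries. It rose 13.5-fold (log2 change 3.75 ± 0.26, adjusted p = 4.208e-09, edgeR), and every CX-5461 value was many times the highest DMSO value. Col10a1 (chromosome 10, 34389981 to 34397085) lies wholly inside the span of Nt5dc1 on the opposite strand. Whether the counting used strand is not given in the sources used here, and Nt5dc1 itself was at 13.0 ± 0.477 CPM in CX-5461 and 13.4 ± 1.24 CPM in DMSO samples (adjusted p = 0.7456, edgeR). Col8a2, another network former, had 9, 8 and 11 counts in the CX-5461 libraries, against 16, 17 and 15 in the DMSO libraries (log2 change -0.83 ± 0.31, adjusted p = 0.02685, edgeR). At these counts the call of Col8a2 ended without any 1 of 5 libraries (adjusted p of 0.0887 without CX-5461 replicate 1, 0.05917 without CX-5461 replicate 2, 0.06989, 0.05472 and 0.05504 without DMSO replicates 1, 2 and 3), with no filter (0.05611) and with DESeq2 (0.1602). Col23a1, a membrane-spanning collagen, had 5.72, 6.90 and 5.26 CPM in the CX-5461 libraries, against 1.09, 1.01 and 1.34 CPM in the DMSO libraries. It rose 5.17-fold (log2 change 2.37 ± 0.19, adjusted p = 2.044e-08, edgeR), or by 1.36 on the log2 scale with the gene-span offset (adjusted p = 1.963e-05, the highest over alternatives).

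The other 22 collagen genes fell under the filter. Col3a1, Col6a2, Col6a5 and Col6a6 had no count in any library, which allows up to 3 counts, or 0.135 to 0.173 CPM, in each. A further 16 had at most 9 counts in any library, among them the beaded-filament genes Col6a1, Col6a3 and Col6a4, so none of the 6 type VI chains was measured. Col4a3 and Col28a1 reached 10 counts in at least 1 library, with 10, 9 and 4 counts of Col28a1 in the CX-5461 libraries and 0, 0 and 2 in the DMSO libraries. With no filter on low counts, Col4a3, Col19a1, Col24a1 and Col28a1 were added as higher, and 20 collagens were called higher and 3 lower (edgeR). Over all genes 4818 were higher and 4654 lower in that setting. The added calls rest on few counts. Col19a1 had 2, 2 and 4 counts in the CX-5461 libraries and 0 in each DMSO library, and Col24a1 had 5, 4 and 6 against 0, 3 and 0.

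The make-up of the collagen transcripts shifted between families. Of the summed CPM per kilobase of all 44 genes, fibrillar collagens held 36.9%, 36.9% and 37.1% in the CX-5461 libraries, against 47.9%, 46.7% and 45.9% in the DMSO libraries. Basement membrane collagens held 31.9%, 32.4% and 33.9% in the CX-5461 libraries, against 25.1%, 26.4% and 26.9% in the DMSO libraries. The groups were apart for both families. Col5a3 alone held 20.5% of this sum in CX-5461 samples and 31.1% in DMSO samples, and it and Col4a1 ranked highest and next highest in both groups.

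**Figure D4:**
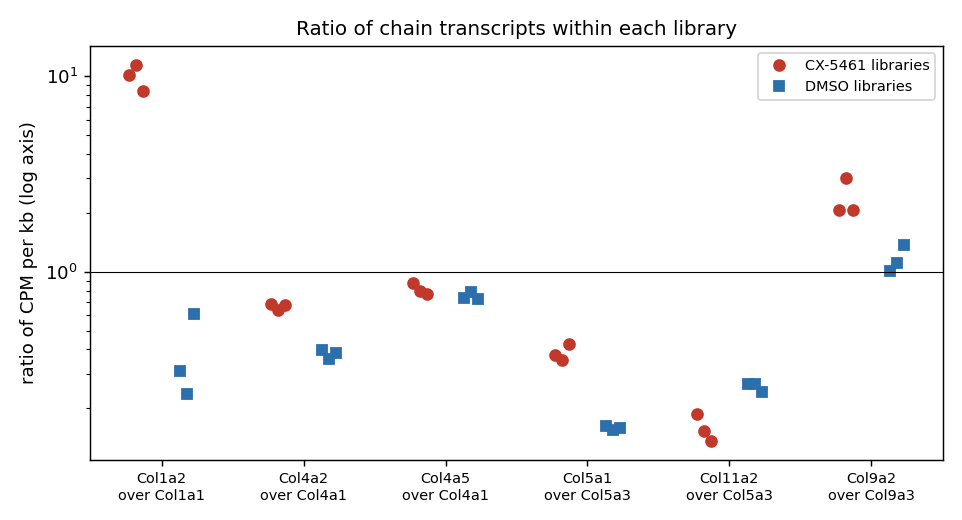
Ratio of CPM per kilobase between pairs of collagen chains within each library on a log axis, with CX-5461 libraries as circles left of DMSO libraries as squares. Col1a2 over Col1a1 is 8.41 to 11.5 in CX-5461 and 0.237 to 0.609 in DMSO libraries, and Col4a5 over Col4a1 is the pair whose groups overlap.

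Many collagen genes are long, and long genes were higher in these data as a whole. The tested collagens spanned a median of 63.3 kb and all tested genes 24.2 kb. Among tested genes of 100 to 200 kb the median log2 change was 0.32. The 7 collagens in that range, Col4a1, Col4a2, Col4a4, Col5a1, Col12a1, Col15a1 and Col27a1, had a median of 1.75. Among genes of 25 to 50 kb the median was -0.07 and that of the 6 collagens 0.00, with Col1a2 at 3.51 and Col8a2 at -0.83. Among genes under 25 kb the median was -0.08 and that of the 4 collagens, Col1a1, Col9a2, Col9a3 and Col10a1, was 0.72. In these ranges Col4a4, Col10a1 and Col12a1 passed the filter mainly through the CX-5461 libraries, and Col8a2 mainly through the DMSO libraries. The medians of the collagens therefore rest in part on genes that were tested because of their change. With an offset that removes the trend of change on span in each library, the median of the tested collagens was 1.18, and 16 were called higher and 3 lower. The transcripts of the tested collagens had a median GC content of 57.9% and those of all tested genes 50.3%, and with a GC offset 16 were higher and 4 lower.

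**Figure D5:**
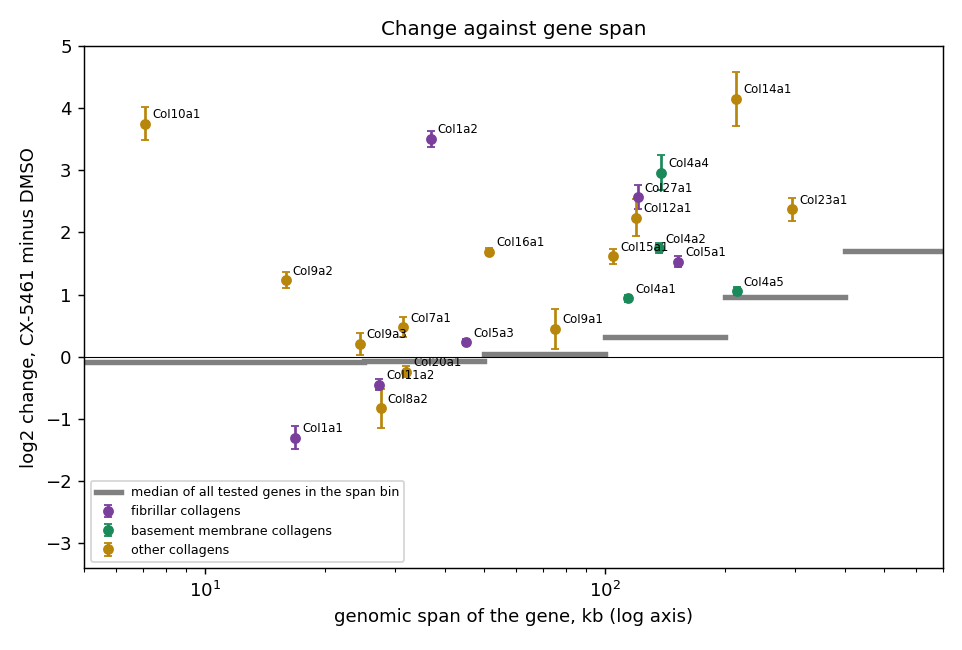
Log2 change (CX-5461 minus DMSO) of the 22 tested collagens with its standard error against the genomic span of the gene in kb on a log axis, coloured by family. Grey bars give the median of all tested genes in each range of span, from -0.08 under 25 kb to 0.97 at 200 to 400 kb, and each tested collagen over 50 kb lies above its bar. Of these, Col4a4, Col9a1, Col12a1 and Col14a1 passed the filter mainly through the CX-5461 libraries.

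Of 19 genes of collagen modification and folding in the table, 16 were tested, with 7 higher, 8 lower, 1 not passed and a median log2 change of -0.05, where 37.2% of all tested genes were higher and 36.5% lower. Leprel1, a prolyl 3-hydroxylase counted as higher and named after its values were seen, had a log2 change of 0.24 ± 0.10 (adjusted p = 0.03848, edgeR) and was lower with the gene-span offset, at -0.22 (0.04441). The call was lost with library totals only (0.1392), the GC offset (0.104) and DESeq2 (0.07872), and without CX-5461 replicate 1 (0.09136), CX-5461 replicate 3 (0.1962), DMSO replicate 1 (0.1616) or DMSO replicate 3 (0.09285). P4ha2 and P4ha1 encode the catalytic subunits of the hydroxylase that stabilises the triple helix. P4ha2 had 52.0, 56.8 and 62.7 CPM in the CX-5461 libraries, against 165.4, 184.4 and 173.7 CPM in the DMSO libraries, a 3.06-fold fall (log2 change -1.61 ± 0.06, adjusted p = 6.656e-12, edgeR). P4ha1 fell 1.77-fold, to 166.8 ± 8.78 CPM in CX-5461, against 294.4 ± 10.97 CPM in DMSO samples (adjusted p = 6.669e-10, edgeR). Their common partner P4hb, a protein disulphide isomerase and the most abundant gene of the list, rose 1.34-fold, to 2235 ± 76.7 CPM in CX-5461, against 1662 ± 27.7 CPM in DMSO samples (adjusted p = 2.982e-07, edgeR). Tmem38b, a cation channel of the endoplasmic reticulum, changed by -0.80 ± 0.09 (adjusted p = 6.198e-07, edgeR). Other members, named after their values were seen, also moved both ways. Serpinh1, the collagen chaperone, fell to 733.8 ± 17.9 CPM in CX-5461, against 974.6 ± 30.2 CPM in DMSO samples (adjusted p = 4.257e-07, edgeR). Of the prolyl 3-hydroxylase complex, Crtap rose to 83.2 ± 4.62 CPM in CX-5461, against 53.6 ± 2.40 CPM in DMSO samples, and Ppib to 390.5 ± 16.3 CPM, against 296.2 ± 1.54 CPM (adjusted p = 7.538e-08 and 6.832e-07, edgeR). The enzyme of that complex, P3h1 (Lepre1 in the table), fell to 97.6 ± 3.33 CPM in CX-5461, against 112.4 ± 2.93 CPM in DMSO samples (adjusted p = 0.001278, edgeR), a call that ended with the gene-span offset and the replicate block together (0.06565). The lysyl hydroxylases were split, with a log2 change of 0.60 ± 0.04 for Plod1, -0.28 ± 0.06 for Plod2 and -0.21 ± 0.05 for Plod3 (adjusted p = 3.217e-09, 9.654e-04 and 9.021e-04, edgeR). Leprel2 did not pass (adjusted p = 0.06951, edgeR), and was called higher with the gene-span offset (log2 change 0.20, adjusted p = 0.001206) and without CX-5461 replicate 1 (0.01967).

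Of 10 genes of collagen export, 9 were tested, with 1 higher, 7 lower, 1 not passed and a median of -0.22, beside 37.2% higher and 36.5% lower among all tested genes. Of the 7, the coat GTPase gene Sar1b, named after its values were seen, had a log2 change of -0.13 ± 0.05 (adjusted p = 0.0432, edgeR) and did not pass with the gene-span offset (0.4034), the GC offset (0.6803) or DESeq2 (0.06698), or without any 1 of 5 libraries, all but CX-5461 replicate 2 (0.07499 to 0.134). Tfg, another of the 7, did not pass with the gene-span offset and the replicate block together (0.06648). Mia3, which loads procollagen into carriers and was the most abundant of them, fell to 217.3 ± 7.11 CPM in CX-5461, against 294.8 ± 8.79 CPM in DMSO samples (adjusted p = 2.784e-07, edgeR). Ctage5, its partner, changed by -0.72 ± 0.05 and Klhl12, an adaptor that enlarges the carriers, by -0.48 ± 0.06 (adjusted p = 3.145e-09 and 1.843e-06, edgeR). Creb3l1, a membrane-bound factor that activates collagen genes in bone, rose by 0.47 ± 0.11 (adjusted p = 1.467e-03, edgeR). Sec24d, a coat subunit named after its value was seen, did not pass (adjusted p = 0.08697, edgeR), and was called lower with library totals only (0.006248), the gene-span offset (log2 change -0.29, adjusted p = 2.929e-05) and the GC offset (0.007546).

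Of 13 genes of trimming and cross-linking, 7 were tested, with 5 higher, 1 lower, 1 not passed and a median of 0.90, beside 37.2% higher and 36.5% lower among all tested genes. Of the 5 that reached the filter minimum in all 6 libraries, 4 were higher and 1 did not pass. Pcolce, the enhancer of the enzyme that removes the C-terminal propeptide, had 89.2, 102.3 and 101.3 CPM in the CX-5461 libraries, against 33.2, 32.2 and 35.6 CPM in the DMSO libraries, a 2.90-fold rise (adjusted p = 1.155e-11, edgeR). That enzyme, Bmp1, rose 1.87-fold (adjusted p = 6.112e-09), and Adamts14, which removes the N-terminal propeptide, 2.89-fold (adjusted p = 2.657e-09, edgeR). The remaining members were named after their values were seen. Among them, Pcolce2 passed the filter mainly through the CX-5461 libraries and Loxl4 mainly through the DMSO libraries. Loxl3 and the scarce Pcolce2 rose, by 0.54 ± 0.06 and 1.46 ± 0.37 (adjusted p = 3.687e-07 and 0.002094, edgeR), and Loxl2 did not pass (adjusted p = 0.5725). Loxl4 fell, at 0.284 ± 0.150 CPM in CX-5461 and 0.5999 ± 0.0966 CPM in DMSO samples (adjusted p = 0.03649, edgeR), a call that ended with the gene-span offset (0.05564), no filter (0.06041) and DESeq2 (0.1547), and without any 1 of 5 libraries, all but CX-5461 replicate 3 (0.0519 to 0.1219). Lox, the lysyl oxidase of fibrils, and Adamts2, a propeptidase, had no count in any library.

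Of 10 genes of collagen receptors and uptake, 7 were tested, with 3 higher, 1 lower, 3 not passed and a median of 0.26. The 42.9% called higher was near the 37.2% of all tested genes, of which 36.5% were lower. Ddr1, a receptor tyrosine kinase for collagen, had 422.8, 423.0 and 459.8 CPM in the CX-5461 libraries, against 176.1, 175.6 and 174.1 CPM in the DMSO libraries, a 2.48-fold rise (adjusted p = 1.405e-12, edgeR). Itgb1, the shared subunit of collagen-binding integrins and the most abundant of the list, rose 1.20-fold (adjusted p = 5.574e-05, edgeR). Its partner Itga1 rose by 0.61 ± 0.14 (adjusted p = 9.291e-04, edgeR), a call that ended with the gene-span offset, at 0.13 (adjusted p = 0.3739). Ddr2, the relative of Ddr1 and named after its values were seen, fell, at 356.2 ± 26.1 CPM in CX-5461 and 422.9 ± 6.35 CPM in DMSO samples (log2 change -0.25 ± 0.05, adjusted p = 4.336e-04, edgeR). The integrin subunits Itga2 and Itga10 and the uptake receptor Mrc2 did not pass (adjusted p = 0.1489, 0.1898 and 0.3864, edgeR), and Itga10 passed as higher without CX-5461 replicate 2 (adjusted p = 0.03401) and Itga2 without DMSO replicate 1 (0.03241).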

How the data were processed

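The authors deposited raw read counts per gene, whole numbers whose column totals differ, for 6 samples of B16 cells, with 3 samples a group by their titles. Per the submitters' processing notes the builds were GRCm38 and mm10. Aligner, counter, strand setting and treatment of multiply mapped reads were not given in the sources used here. In edgeR 4.0.16 (R 4.3.3), filterByExpr with a minimum count of 10 (0.526 CPM) left 12198 genes. The model was an intercept and the treatment, with TMM factors of 0.970 to 1.03 and the two-sided quasi-likelihood F test, and an adjusted p below 0.05 was called. Standard errors are log2 changes over the square root of F. The test was also run on simulated counts that gave all genes in both groups 1 common spread beyond counting error. There it recovered 34 of 50 genes changed 1.25-fold and 49 of 50 changed 4-fold. In the data, CX-5461 libraries differed more among themselves than DMSO libraries did, so these shares need not hold for them. CPM use library totals times their TMM factors, and CPM per kb the longest protein-coding transcript. Coordinates, spans and GC content come from GENCODE M21 (GRCm38), matched by identifier for 21919 genes. Floors cover counting error only, and values after ± are SDs between libraries or standard errors of the fit.

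The collagen families, the pathway and marker lists and the naming rule were chosen with earlier results of these data known. All tested collagens were named, with the 3 called genes of largest change at 5 CPM or more and the most abundant gene from each pathway list, and the most abundant marker and those with no count. Lists were described by counts and medians, with no set test. Alternatives were RLE factors, library totals only, no filter, DESeq2 1.42.0, a replicate block, gene-span and GC offsets with and without that block, and each library left out. Offsets were loess trends (span 0.3) of each library's deviation from the mean.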

Additional observations from a re-analysis of the deposited data

How the results depend on the processing

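Over all alternatives no tested collagen changed sign, and of 330 values under alternatives 314 kept their side of the threshold and 16 lost the call, all of Col7a1, Col8a2 or Col20a1. The number of collagens called lower, 4, became 3 with the gene-span offset, with no filter and with DESeq2, 2 with the gene-span offset and the replicate block together (where Col20a1 had adjusted p = 0.05087 and Col8a2 0.06409, edgeR), and 2 to 3 when each library was left out in turn, with 2 without CX-5461 replicate 2, DMSO replicate 2 or DMSO replicate 3. The number called higher, 16, was 15 to 17 when each library was left out, 18 with DESeq2, 20 with no filter and 16 under the other alternatives. The filter was applied anew when a library was left out, and DESeq2 was run without it. These counts can therefore include collagens outside the 22 tested. Over all genes, 4818 were higher and 4654 lower with no filter, and 4410 were higher and 4179 lower with DESeq2. Summed levels of the other collagens gave a ratio of 1.91 with library totals only, against 2.01. Replicate numbers did not pair the samples, with deviations of same-numbered libraries correlated at 0.0364, 0.00368 and -0.00843, and 3 of 6 libraries correlated best with their own number in the other group. With the replicate block 16 collagens were higher and 4 lower, as without it, and over all genes 4536 were higher and 4464 lower, against 4538 and 4448. With library totals only 3989 genes were higher and 5109 lower. Depth limits the 22 collagens under the filter, for which a change was not detectable at this depth unless named.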

Other observations

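Of 12 genes of matrix proteins that bind collagen 6 were tested, with 4 higher, 1 lower, 1 not passed and a median log2 change of 0.68, where 37.2% of all tested genes were higher and 36.5% lower. Sparc, a collagen-binding glycoprotein and the most abundant of them, had 910.9, 887.7 and 973.0 CPM in the CX-5461 libraries, against 449.4, 469.6 and 467.9 CPM in the DMSO libraries, a 2.00-fold rise (adjusted p = 3.168e-11, edgeR). Fn1, fibronectin, rose 1.93-fold, with 152.6, 125.2 and 162.7 CPM in the CX-5461 libraries, against 77.2, 74.7 and 77.2 CPM in the DMSO libraries (adjusted p = 1.762e-08, edgeR). Hspg2, the basement membrane proteoglycan perlecan, rose 1.90-fold (adjusted p = 1.126e-06, edgeR), with 365.8, 253.1 and 379.8 CPM in the CX-5461 libraries, of which replicate 2 was the lowest, against 181.2, 169.0 and 177.4 CPM in the DMSO libraries. Nid1, nidogen, which links type IV collagen to laminin, was the member that fell and was named after its values were seen, at 49.4 ± 4.54 CPM in CX-5461 and 83.0 ± 3.04 CPM in DMSO samples (adjusted p = 4.162e-08, edgeR). Nid2, its relative, rose by 0.44 ± 0.16 (adjusted p = 0.02102, edgeR), a call that ended with DESeq2 (0.08019) and without CX-5461 replicate 3 (0.1035), DMSO replicate 1 (0.07917) or DMSO replicate 2 (0.09176), and Thbs1, thrombospondin, did not pass (adjusted p = 0.1919, edgeR). The proteoglycan gene Bgn had no count in any library.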
